A study of Chrysanthemum x morifolium with 4 samples.

Results

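This account concerns 100 abundant unigenes of chrysanthemum leaves. By the deposited values, though not under every other scaling, they kept nearly the same level in control leaves and under 3 cold or freezing treatments. A unigene is a transcript pieced together from the reads. The members were chosen from the deposited FPKM (fragments per kilobase of transcript, relative to the total count of the library) as the unigenes with a mean of at least 100 FPKM over the libraries and a highest FPKM of at most 1.3 times the lowest. The 100 unigenes with the highest control count were left out. The table listed 93837 unigenes, of which 919 were at 100 FPKM or more and outside the leading control unigenes. These 919 are called the abundant unigenes below, and 10.9% of them were members. Because the measured values chose the members, every value below is a description and none is a test.

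The leaves came from the cultivar Jinba (Chrysanthemum x morifolium), grown as tissue-cultured seedlings for 20 days on MS medium at 25 °C by day and 22 °C by night and then kept in pots for 3 days. Each of 4 treatments gave 1 library. The control library came from plants under normal conditions, and the acclimated library from plants held at 4 °C for 24 h. The acclimated-frozen library came from plants that had the same 24 h at 4 °C followed by 4 h at -4 °C, and the directly frozen library from plants brought to -4 °C for 4 h without any acclimation. Leaves of 3 replicates were mixed for each library, which leaves no measure of how plants vary and no test of a pair of treatments. Total counts were 15781435, 15179341, 14024558 and 14345704 in the control, acclimated, acclimated-frozen and directly frozen library, and values given as 4 numbers below follow this order.

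Transcripts that hold their level while others change are used as internal references in quantitative PCR, where the level of a gene of interest is divided by theirs. In plants the usual candidates encode actin, tubulin, ubiquitin, elongation factor 1-alpha, glyceraldehyde-3-phosphate dehydrogenase or a subunit of protein phosphatase 2A. Cold is a demanding setting for such references, because it changes metabolism, translation and the cytoskeleton. Neither a gene name nor a sequence comes with the identifiers, so none of the members is matched here to those genes, and the label of the tissue could not be checked against leaf markers.

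The members' levels were moderate within the abundant class. Their mean FPKM ran from 100.2 to 1071, with a median of 141.0, against a median of 160.0 for the other 819 abundant unigenes. The median member stood at 147.7, 142.3, 136.0 and 150.2 FPKM in the 4 libraries. Over the same libraries the median abundant unigene stood at 135.0, 173.0, 169.5 and 155.5 FPKM, whereas the members' medians lay between 136.0 and 150.2 FPKM. These 919 unigenes were reached by leaving out those with the highest control counts, which by itself favours a low control value. With the leading control unigenes put back, the medians over 1019 unigenes were 144.9, 183.2, 182.4 and 163.9 FPKM, so the control median was still the lowest. After rescaling by TMM (trimmed mean of M-values) the median log2 ratio of the 919 to the control depended on the library. It was 0.35 in the acclimated, 0.40 in the acclimated-frozen and -0.02 in the directly frozen library. FPKM is a share of the sequenced RNA, so a level that stays the same does not show the same RNA per cell, and in whole leaves fewer cells of a type and less RNA per cell cannot be told apart.

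Together the members held a small part of each library. The rule limits how far each member's share of the total count can move, so it also makes their summed part even. They held 2.14%, 2.18%, 2.08% and 2.14% of counts, with exact 95% binomial intervals of 2.13 to 2.15%, 2.17 to 2.18%, 2.07 to 2.09% and 2.13 to 2.15%. The 919 abundant unigenes held 19.4%, 26.6%, 28.9% and 23.9% in the same order, and the 100 leading control unigenes, which the rule leaves out, held 31.6%, 17.4%, 14.1% and 18.0%. All 1019 unigenes held 51.0%, 44.1%, 43.0% and 41.9%, so the lower control share of the 919 goes with the choice of those left out on the control count, and the direction is the other way with them included. Of these leading unigenes 8 also met the limit of 1.3, at mean levels from 283.9 to 2771 FPKM, and 5 of the 8 met it after rescaling by TMM as well. All intervals on counts cover counting error only.

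**Figure D1:**
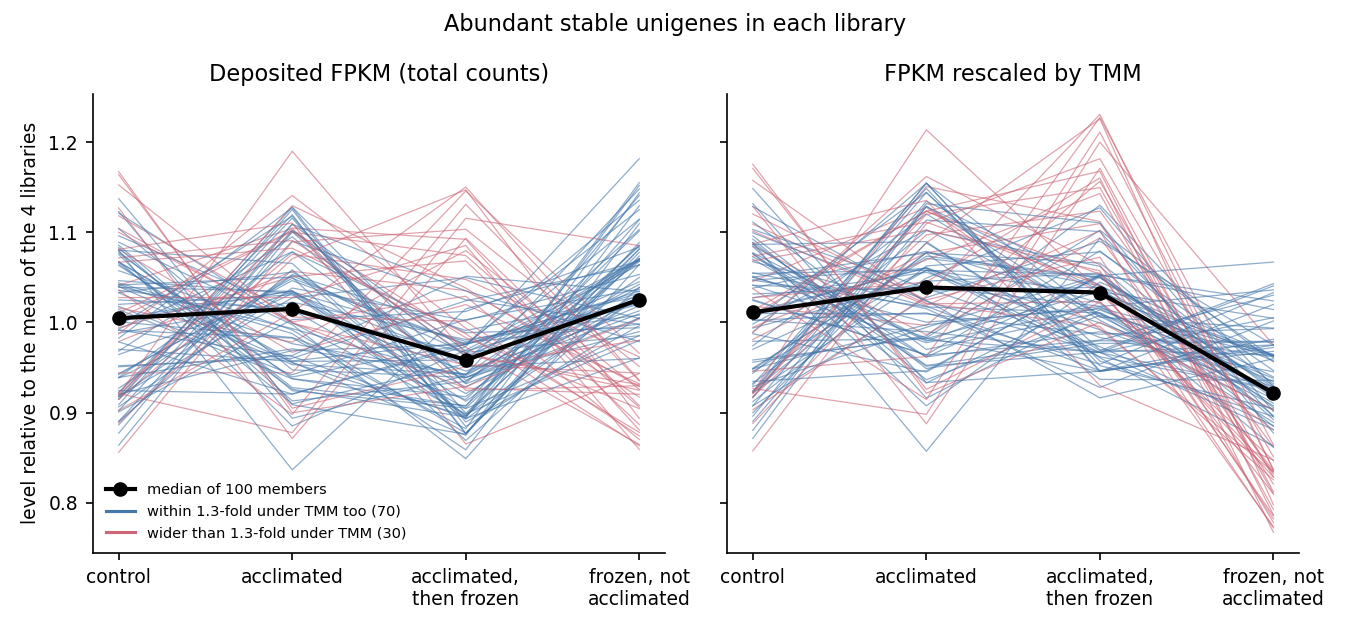
Each line is 1 of the 100 members, drawn as its level in each library divided by its own mean over the 4 libraries (vertical axis, no unit), with deposited FPKM on the left and TMM-scaled FPKM on the right; black points are the median. On the left the median is lowest in the acclimated-frozen library (0.958) and on the right it is lowest in the directly frozen library (0.921).

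The member with the smallest range, c91135.graph_c0, had 162.3 FPKM in the control, 167.9 FPKM in the acclimated, 161.1 FPKM in the acclimated-frozen and 165.6 FPKM in the directly frozen library. Its highest library exceeded its lowest by a ratio of 1.04, with an exact 95% interval for that ratio of 0.979 to 1.11, and 1873 to 2123 counts lay behind each value. Unigene c103321.graph_c0 followed with 119.5, 116.8, 111.6 and 113.7 FPKM in the same order, a ratio of 1.07 (1.002 to 1.15). Its lowest library was the acclimated-frozen one by deposited FPKM and the directly frozen one under TMM.

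Unigene c45009.graph_c0 stood at 206.7, 221.6, 209.8 and 219.2 FPKM, a ratio of 1.07 (0.997 to 1.15), and was lowest in the control. Under TMM it was lowest in the directly frozen library. Unigene c94723.graph_c0 had 161.7, 160.3, 149.3 and 159.8 FPKM, a ratio of 1.08 (1.02 to 1.15). By deposited FPKM it was level in 3 libraries and lower only in the acclimated-frozen library. After rescaling by TMM it read 162.9, 164.2, 160.8 and 143.8, lowest in the directly frozen library. The 4 unigenes just given were the members with a deposited ratio of at most 1.1. The next in order were c107462.graph_c0 (1.101), c100972.graph_c0 (1.106), c70455.graph_c0 (1.106) and c86383.graph_c0 (1.108), whose intervals overlap those of their neighbours. Of them c70455.graph_c0 was the most abundant, at 264.8 to 292.8 FPKM.

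Over all members the ratio of highest to lowest FPKM had a median of 1.21, and 42 members lay at or under 1.2. Among the other abundant unigenes the median was 2.26, the quartiles were 1.66 and 4.48, and the highest was 8735. The limit of 1.3 cut through a continuous distribution: 35 abundant unigenes had ratios above 1.25 and up to 1.3, and 24 had ratios above 1.3 and up to 1.35. Just inside the limit were c106895.graph_c0 (1.2996), c95783.graph_c0 (1.2987), c99585.graph_c1 (1.2978) and c114088.graph_c0 (1.2976). Just outside it were c102667.graph_c0 (1.3003), c103572.graph_c0 (1.3030), c103745.graph_c1 (1.3083) and c102353.graph_c0 (1.3089). Counting error was larger than these steps, since the interval was 1.24 to 1.36 for c106895.graph_c0 and 1.21 to 1.39 for c102667.graph_c0.

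**Figure D2:**
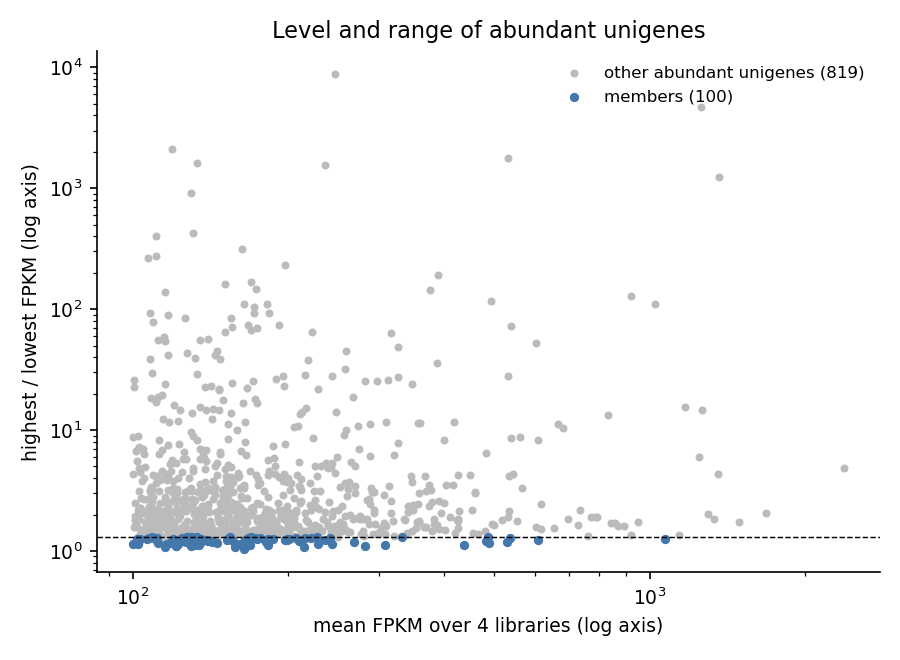
Mean FPKM over 4 libraries (horizontal, log axis) against the ratio of highest to lowest FPKM (vertical, log axis) for the 919 abundant unigenes, with the dashed line at 1.3. The 100 members lie under the line from 100.2 to 1071 FPKM, and the other unigenes reach a ratio of 8735.

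The evenness of the members went with small but measurable differences between the libraries. The coefficient of variation of a member's FPKM over the 4 libraries ran from 1.89% to 13.0%, with a median of 8.91%. Counting error alone would give a median of 2.01% (0.885% to 3.99%), and the lowest count of any member in any library was 609. In 1 member the observed value was no larger than that of counting error. The interval of the ratio of highest to lowest library lay wholly above 1 in 98 members, although the highest and lowest libraries were picked from 4 and the interval takes no account of that. It lay wholly at or under 1.3 in 57 members.

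No single library held the highest or lowest value of all members by deposited FPKM, but the acclimated-frozen library was lowest most often. It held the lowest FPKM of 40 members, against 28 for the control and 16 each for the acclimated and the directly frozen library. The highest FPKM lay in the acclimated library for 35 members, in the control for 28, in the directly frozen library for 26 and in the acclimated-frozen library for 11. The other 819 abundant unigenes had their lowest value in the control in 46.0% of cases and in the acclimated-frozen library in 25.0%. For 16.7% it lay in the directly frozen library and for 12.2% in the acclimated library. Their highest value lay in the acclimated library in 34.6%, in the acclimated-frozen in 23.3%, in the control in 22.6% and in the directly frozen in 19.5%. With the control library left out of the range, 197 abundant unigenes met the limit, against 161 without the directly frozen, 157 without the acclimated-frozen and 137 without the acclimated library.

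Deposited FPKM divides by the total count of a library, which a few very abundant transcripts can move. The levels were therefore rescaled by TMM, which sets the factors from the bulk of unigenes. The factors were 0.993 for the control, 0.976 for the acclimated, 0.928 for the acclimated-frozen and 1.11 for the directly frozen library. Division by them raised the acclimated-frozen values and lowered the directly frozen ones. Of the 100 members 70 stayed within 1.3 and 30 did not, the members' ratios reaching 1.54. Applied anew to TMM-scaled values the rule found 106 unigenes, or 11.5% of the abundant ones, of which 36 were not members by deposited FPKM.

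Under TMM, which lowers the directly frozen library, the lowest library changed. The directly frozen library was lowest for 63 members, the control for 16, the acclimated for 13 and the acclimated-frozen library for 8. Of the other 819 abundant unigenes 24.9% were lowest in the directly frozen library under TMM and 40.4% in the control. The geometric mean of all members was 164.8, 166.7, 158.8 and 166.7 FPKM by deposited values and 166.0, 170.8, 171.1 and 149.96 TMM-scaled FPKM in the same order of libraries. The ratio of its highest to lowest value was 1.05 and 1.14, respectively. Without the directly frozen library 93 members lay within 1.3 under TMM.

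**Figure D3:**
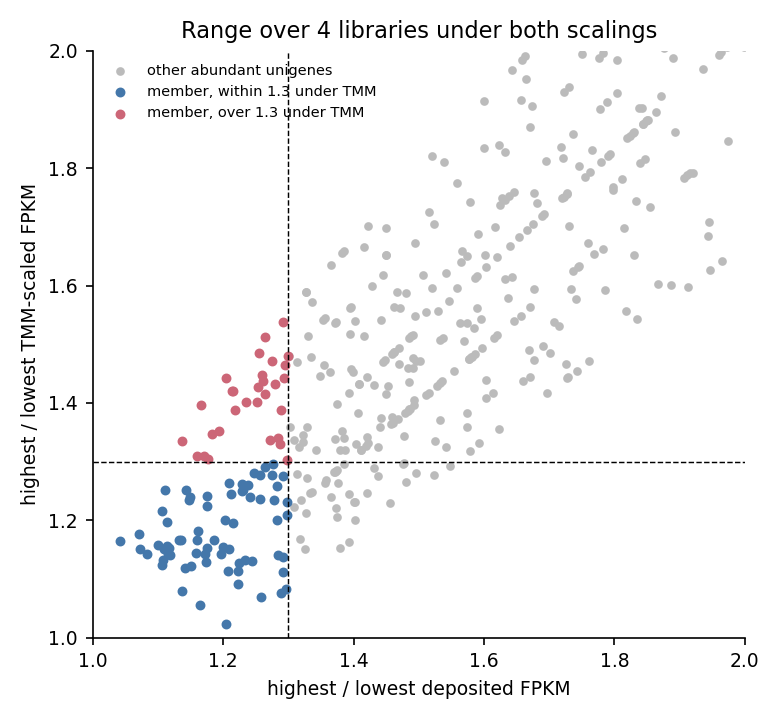
Ratio of highest to lowest level over 4 libraries by deposited FPKM (horizontal) and TMM-scaled FPKM (vertical) for abundant unigenes, with axes ending at 2 and dashed lines at 1.3. The 70 members in blue lie under both lines, and the 30 in red lie above the horizontal line and reach 1.54.

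Of the 30 members that left the range under TMM, 16 had their lowest deposited FPKM in the directly frozen library and none had their highest there. By deposited FPKM their medians were 150.5, 161.2, 155.8 and 136.5. The widest under TMM was c107371.graph_c0, with 433.0, 521.9, 559.2 and 435.5 FPKM as deposited and 436.2, 534.7, 602.3 and 391.8 after rescaling, a ratio of 1.29 that became 1.54. It was higher in both acclimated libraries than in both others under either scaling. The most abundant member, c107206.graph_c2, had 1101, 1101, 1163 and 920.3 FPKM as deposited, with a ratio of 1.26 that became 1.51. It was level in the control and acclimated libraries and low in the directly frozen library. Unigenes c91499.graph_c0 and c106895.graph_c0 were also lowest in the directly frozen library, and reached 1.49 and 1.48 under TMM. The 36 unigenes that entered under TMM had the opposite profile by deposited FPKM, with medians of 164.1, 142.3, 132.6 and 183.6. TMM divides the directly frozen library by 1.11 and the acclimated-frozen library by 0.928. The profiles of the unigenes that left and of those that entered therefore follow largely from the factors.

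The members most even under TMM were largely not those most even by deposited FPKM. Unigene c86018.graph_c0 had the smallest ratio, 1.02, with 130.3, 130.3, 127.4 and 128.1 TMM-scaled FPKM from 1184 to 1459 counts. By deposited FPKM it read 129.4, 127.1, 118.2 and 142.4, a ratio of 1.205. Unigene c101441.graph_c0 followed at 115.3, 115.6, 121.7 and 118.3 TMM-scaled FPKM, a ratio of 1.06 against 1.17 as deposited.

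Unigenes c107610.graph_c1 (1.07), c95435.graph_c0 (1.08), c87478.graph_c0 (1.08), c101784.graph_c0 (1.08), c114690.graph_c1 (1.09) and c102561.graph_c0 (1.11) came next under TMM. All of these were highest in the directly frozen library by deposited FPKM. TMM lowers that library, so this follows largely from the scaling. The lists of the 8 smallest ratios under either scaling had no unigene in common. The member with the smallest deposited ratio, c91135.graph_c0, had a TMM ratio of 1.16 and was lowest in the directly frozen library on that scale.

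**Figure D4:**
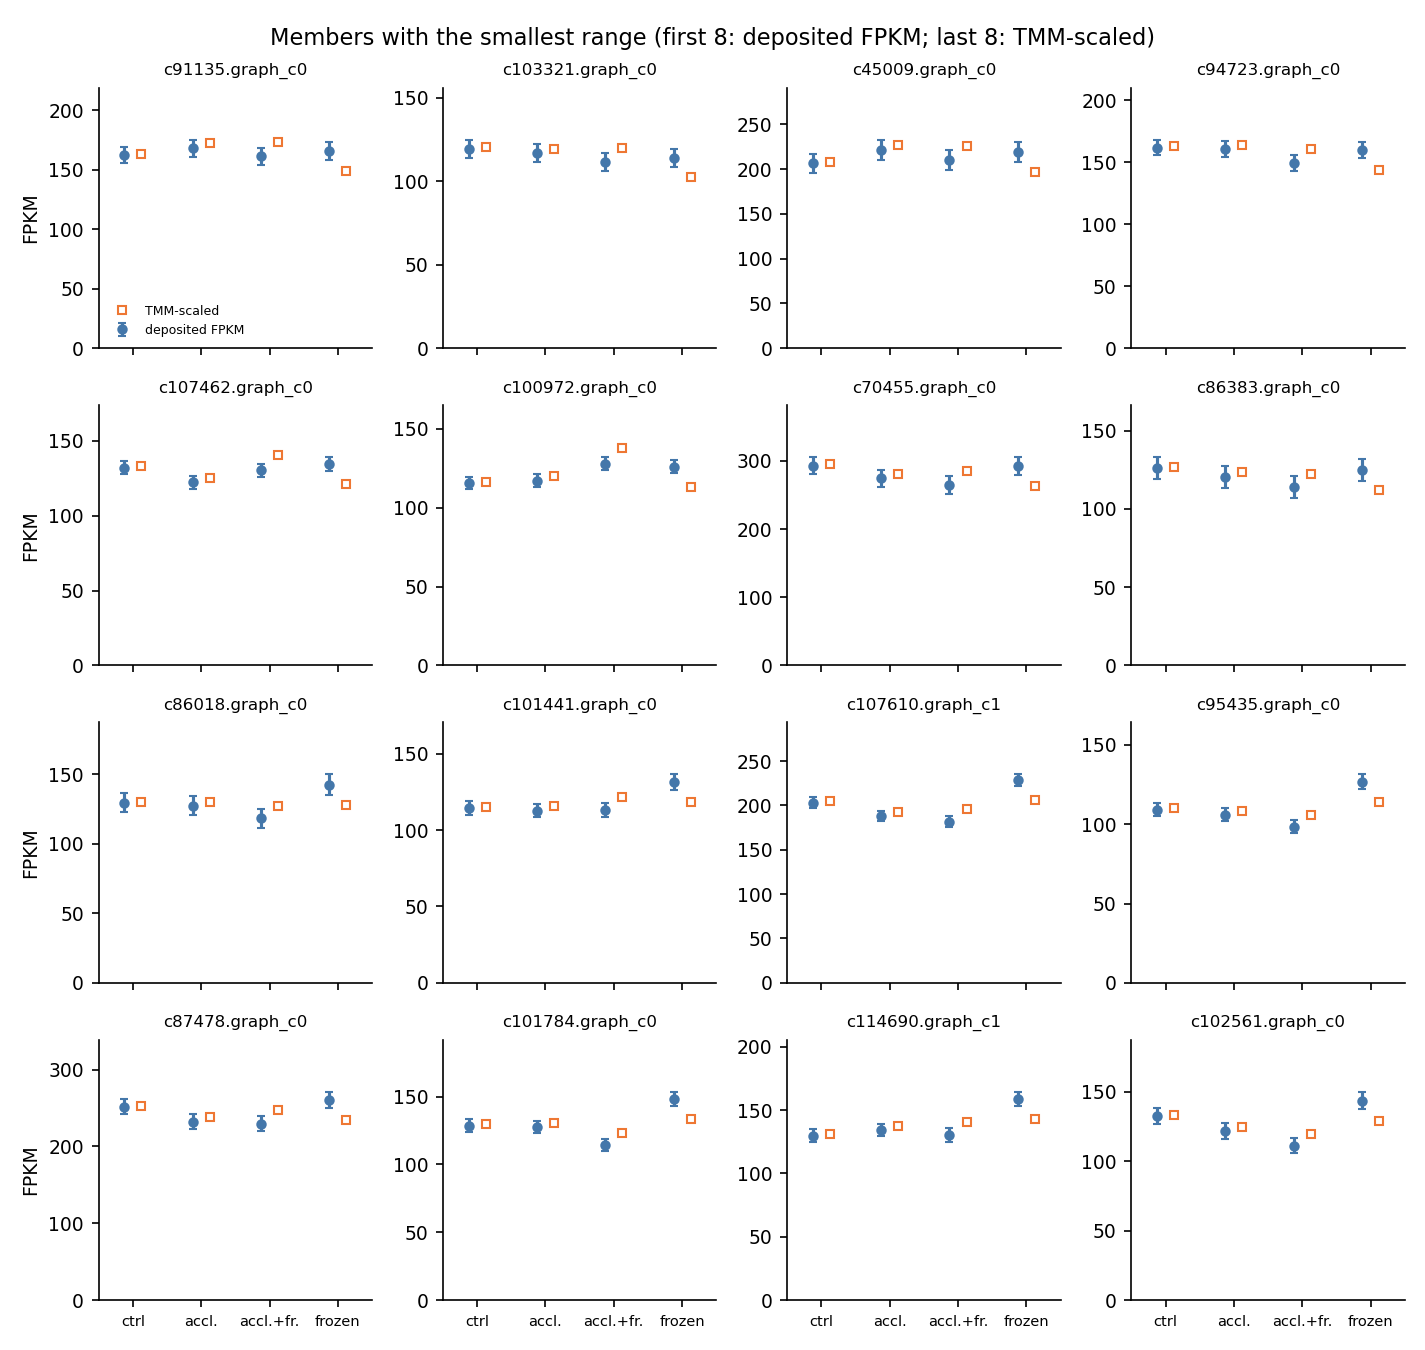
FPKM (vertical, from 0) in each library for the 8 members with the smallest ratio by deposited FPKM (upper 2 rows) and the 8 with the smallest ratio after TMM scaling (lower 2 rows); filled points are deposited FPKM with exact 95% Poisson intervals of counting error, open squares TMM-scaled values. In the upper panels the squares drop in the directly frozen library, as from 173.5 to 149.0 in c91135.graph_c0, and in the lower panels the filled points are raised there, as at 142.4 in c86018.graph_c0.

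Further scalings narrowed the set. Median-of-ratios factors kept 60 members within 1.3 and upper-quartile factors kept 28. Applied anew, the rule found 99 (10.8% of abundant unigenes) and 83 (9.03%), respectively, so the number changed less than the identity: 39 and 55 of these were not members by deposited FPKM. The 28 members kept by upper-quartile factors lay within 1.3 under all 4 scalings. By deposited FPKM 19 of these were highest in the directly frozen library and 9 in the control, and 17 were lowest in the acclimated-frozen library. Each set of factors was largest for the directly frozen and smallest for the acclimated-frozen library, so this follows largely from the factors. The 28 were then ordered by their widest ratio under any of the scalings, a choice made after the values were seen. The first was c101441.graph_c0 at 1.18 with 114.4, 112.8, 113.0 and 131.5 deposited FPKM. Next were c106584.graph_c1 (1.195), c113160.graph_c1 (1.196), c107659.graph_c0 (1.1998) and c108125.graph_c0 (1.2001). These last 4 were each higher in the control and in the directly frozen library than in both acclimated libraries by deposited FPKM. For c106584.graph_c1 the values were 136.9, 119.1, 116.6 and 135.6.

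A ratio of a pair of unigenes within a library does not depend on scaling. For each abundant unigene the standard deviation over the 4 libraries of its log2 ratio to each member was averaged over the members, as in the geNorm measure M. The members' M ran from 0.12 to 0.240 with a median of 0.162, against a median of 0.561 for the other abundant unigenes. The smallest M belonged to c94723.graph_c0, and c91135.graph_c0 had 0.121. Of the 100 abundant unigenes with the smallest M 88 were members, and the 12 that were not had deposited ratios of 1.31 to 1.38. When the ratios were taken to all 919 abundant unigenes in place of the members, 57 of the 100 with the smallest M were members, and the members' median was 0.819 against 0.988. M was computed in the libraries that chose the members, so it describes how alike their profiles were and is no independent check.

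Set out by comparison, the members' log2 ratios under TMM were centred near 0 in 3 of 5 comparisons and away from it in those that use the directly frozen library. The median was 0.04 for acclimation against control, where the median abundant unigene was at 0.35. The 95% counting interval excluded equal levels for 40 members higher and 31 lower, and among abundant unigenes it did so for 57.8% higher and 36.5% lower. For freezing alone against control the median was -0.15 against -0.02, with 9 members higher (40.4% of abundant unigenes) and 62 lower (43.9%).

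For the freezing step after acclimation the members' median was -0.01 and that of abundant unigenes -0.03, with 29 members higher (36.5%) and 31 lower (43.9%). Between the frozen libraries, with against without acclimation, the median was 0.16 against 0.40, with 67 members higher (63.4%) and 7 lower (28.4%). For the whole sequence against control it was 0.01 against 0.40, with 42 higher (59.8%) and 27 lower (34.3%). The abundant unigenes leave out the leading control unigenes. Over all unigenes with at least 10 counts the TMM medians were also near 0, at -0.065 for the whole sequence and -0.02 for acclimation against control. The rule used these contrasts, and several share libraries, so nothing about the members is read from the counts. By total counts the median for freezing alone was 0.01, that between the frozen libraries was -0.10 and that for the whole sequence was -0.08, so these 3 directions turned with the scaling. The scaling moved all unigenes alike: over unigenes with at least 10 counts the median log2 ratio was -0.03 under TMM and 0.14 by total counts for freezing alone, and -0.08 and -0.34 between the frozen libraries. Upper-quartile factors moved it from -0.02 to 0.14 for acclimation.

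The freezing ratios with and without acclimation share no library and could be set side by side. Under TMM 40 members had a ratio below 1 for freezing alone and above 1 for freezing in acclimated leaves, 12 were the reverse, 39 were below 1 in both and 9 above 1 in both. Over the 919 abundant unigenes the shares were 20.2%, 21.1%, 32.0% and 26.7% in the same order. By deposited FPKM 40 members were above 1 for freezing alone and below 1 in acclimated leaves, and 15 were the reverse, against 35.8% and 9.90% of abundant unigenes. The direction of the members' imbalance turned with the scaling. The rule limits these ratios, so nothing is read from the counts.

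Level, length and assembly identity were described next. Among abundant unigenes 53 of 408 at a mean of 100 to 150 FPKM were members (13.0%), 24 of 217 at 150 to 200 FPKM (11.1%), 15 of 213 at 200 to 400 FPKM (7.04%) and 8 of 81 at 400 FPKM or more (9.88%). Below the rule's minimum, again outside the leading control unigenes, the limit of 1.3 was met by 393 of 3355 unigenes at 30 to 100 FPKM (11.7%) and by 651 of 7760 at 10 to 30 FPKM (8.39%). Among those with a mean count of at least 1000, where counting error is smaller, it was met by 201 of 1625 (12.4%) and 42 of 267 (15.7%), so the order of these lower bands depended on the counts behind them. The length implied by count and FPKM had a median of 1130 bases in the members and 1174 bases in the other abundant unigenes. It was a whole number for 41.3% of the abundant unigenes, so for the others it is not a plain count of bases. Of the 131 abundant unigenes of 2000 bases or more 8 were members (6.11%), and of the 450 from 1000 to 2000 bases 51 were (11.3%).

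The longest member, c101886.graph_c2 (5482 bases), had 113.8, 109.5, 120.9 and 103.6 FPKM, a ratio of 1.17 that became 1.396 under TMM. The next longest were c99439.graph_c0 (3199 bases, ratio 1.28, 1.43 under TMM) and c114102.graph_c0 (2353 bases, 1.24 and 1.26). The shortest, c95349.graph_c0 (321.6 bases), had 125.5, 126.6, 135.0 and 140.3 FPKM from 609 to 647 counts, a ratio of 1.12. Unigene c81077.graph_c0 (362.2 bases) had a ratio of 1.26 with a wider interval of 1.13 to 1.39. After c107206.graph_c2 the most abundant members were c108322.graph_c0 (549.7 to 675.9 FPKM, ratio 1.23), c98509.graph_c0 (455.1 to 583.9, ratio 1.28), c93742.graph_c0 (497.0 to 584.4, ratio 1.18) and c104617.graph_c0 (439.5 to 509.1, ratio 1.16). These 4 were within 1.3 under TMM too.

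The identifiers carry a component number, and no label says how unigenes with the same number are related. A number was shared with another listed unigene by 22 members (22.0%) and by 25.4% of the other abundant unigenes. The members' partners were 24 unigenes, 17 of them at a mean of 10 FPKM or more, and 4 of those 17 lay within 1.3. Of these 4, 2 were members themselves and so within the limit by the rule, which leaves 2 of 15 partners that were not members. In the level bands from 10 to 400 FPKM the limit was met by 7.04% to 13.0% of unigenes, so nothing is read from the partners' count. Large differences inside a component were seen. Unigene c101784.graph_c0 had 128.6, 127.4, 114.4 and 148.4 FPKM, whereas its partner c101784.graph_c1 had 35.5, 251.8, 208.1 and 28.4 FPKM, a ratio of 8.87. The partner was high in both acclimated libraries and low in both others.

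The same order was seen for c105061.graph_c0, with 43.5, 195.3, 139.0 and 22.2 FPKM, beside the member c105061.graph_c1 with 304.8, 394.5, 320.0 and 306.5 FPKM. In component c105946 the member graph_c3 had 452.1, 462.1, 416.1 and 420.1 FPKM, and graph_c1 had 91.0, 458.1, 568.3 and 161.1 FPKM. Both unigenes of component c113463 were members. They moved alike, at 150.1, 116.0, 145.6 and 120.9 FPKM for c113463.graph_c0 and 110.3, 95.6, 120.5 and 99.6 FPKM for c113463.graph_c1, and both left the range under TMM at 1.44 and 1.45. If reads are split between similar unigenes of a component, single values are uncertain, and this was not tested. These components were picked after their values were seen.

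**Figure D5:**
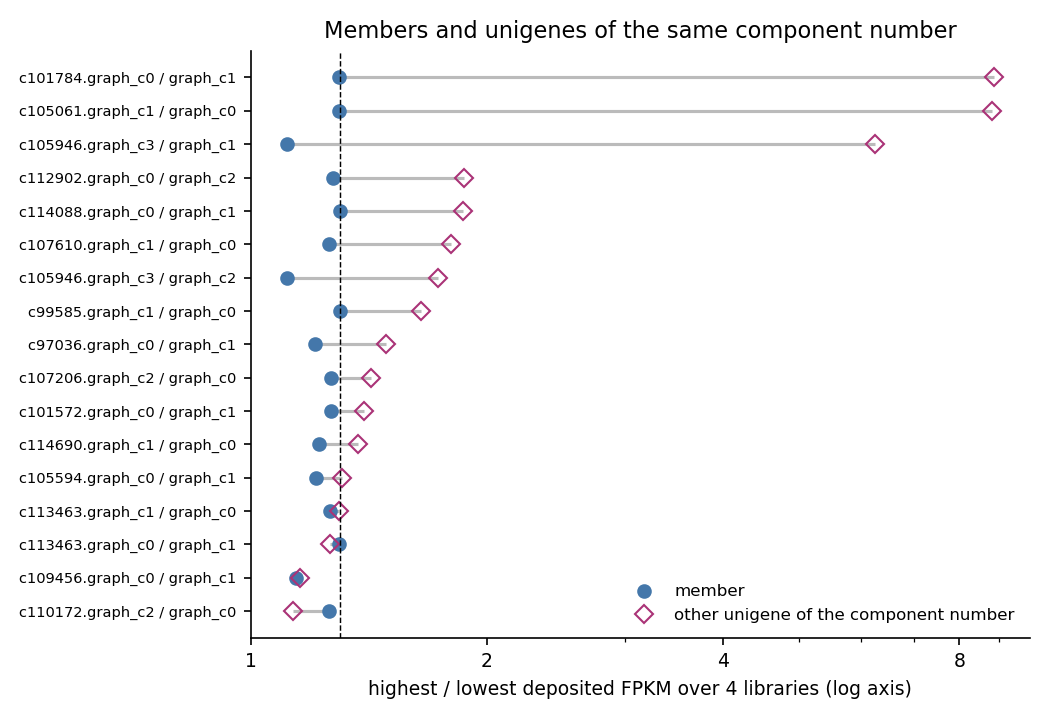
Ratio of highest to lowest deposited FPKM over 4 libraries (horizontal, log axis) for members (filled) and for other unigenes of the same component number with a mean of at least 10 FPKM (open); each row is 1 pair and the dashed line marks 1.3. The partners run from 1.13 to 8.87, and 3 of the pairs reach above 6.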

How the data were processed

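RNA-seq of total leaf RNA gave 4 libraries, 1 per treatment. The deposited counts are whole numbers per unigene and not normalized. The deposited FPKM of a unigene is its count over the library total, per length, and the lengths given are those implied by this. Per the submitters' processing notes Bowtie 0.12.2, Cufflinks and the mouse build mm8 were named; the assembler, counting rule, strand use and role of that build are not given in the sources used here.

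Membership was decided on deposited FPKM. Factors for TMM and upper quartile came from edgeR 4.0.16 and for median of ratios from DESeq2 1.42.0 (R 4.3.3), over all unigenes, and FPKM was divided by them. Ratios of a pair of libraries have exact (Clopper-Pearson) 95% intervals from scipy 1.17.1. No model was fitted, since each treatment has 1 library. The rule and intervals were tested on simulated Poisson counts, with known changes set in the acclimated library only. The simulated counts held no variation between plants, so their behaviour under such variation was not tested. Named were the members with the 8 smallest ratios under either scaling, the 5 most abundant, the 3 longest and shortest, the 4 widest under TMM and the 4 on each side of the limit. Members, lists and rules were chosen with earlier results of these data known. Alternatives covered the scaling, ratio limit, minimum level, left-out unigenes, a pseudocount of 1 and each library left out.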

Additional observations from a re-analysis of the deposited data

Results flagged for a closer look

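Freezing ratios in the acclimated and the unacclimated state pointed in opposite directions, with both 95% counting intervals clear of equal levels under TMM, for 9 of the 36 unigenes named. The same held for 24 of the 100 members and for 26.2% of the 919 abundant unigenes. The named unigenes were picked partly for their ranges, so their count is not read against that share. The difference between the states was not tested, as each rests on single libraries. In 7 of the 9 the level was lower after freezing alone and higher after freezing in acclimated leaves. Of the members 20 had that order and 4 the reverse, against 11.2% and 15% of the 919 abundant unigenes. The rule limits these ratios, so nothing is read from the split by direction. Under TMM the freezing log2 ratio after acclimation exceeded that without it by 0.58 in c99439.graph_c0, by 0.57 in c107206.graph_c2, by 0.51 in c101886.graph_c2 and by 0.50 in c114088.graph_c0. It exceeded it by 0.35 in c93742.graph_c0, by 0.33 in c107371.graph_c0 and by 0.30 in c107462.graph_c0. In the other 2 the order was the reverse, with differences of -0.38 in c99585.graph_c1 and -0.19 in c114102.graph_c0. By deposited FPKM the directions were opposite in 5 of the 9 (c107206.graph_c2, c101886.graph_c2, c114088.graph_c0, c99585.graph_c1 and c114102.graph_c0). That count uses the signs of the ratios alone and asks nothing of their intervals. The sizes also moved with the scaling: by deposited FPKM the differences were 0.35 in c99439.graph_c0, 0.34 in c107206.graph_c2, 0.28 in c101886.graph_c2, 0.26 in c114088.graph_c0, 0.12 in c93742.graph_c0, 0.09 in c107371.graph_c0 and 0.06 in c107462.graph_c0. They were -0.62 in c99585.graph_c1 and -0.43 in c114102.graph_c0.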

How the results depend on the processing

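The number of members was 100. It was 42 at a ratio limit of 1.2 and 228 at 1.5, 282 at a minimum of 50 FPKM and 23 at 200 FPKM, and 1752 with no lowest level. It was 57 when the whole counting interval had to lie within 1.3. Leaving out 1 library can only add unigenes: the number was 137 without the acclimated, 157 without the acclimated-frozen, 161 without the directly frozen and 197 without the control library. Scaling, the unigenes left out and a pseudocount gave 83 to 108. Of the members 70 were within 1.3 under TMM, 28 under upper-quartile factors, 28 under all 4 scalings together (added after the data were seen), 44 at a TMM limit of 1.2, and 74 to 93 without 1 library.

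The members' median log2 ratio for acclimation was 0.20 by upper-quartile factors. For freezing alone it was 0.0088 by total counts, -0.20 by median of ratios and -0.24 by upper quartile. For freezing after acclimation it was -0.080, 0.044 and -0.057, and between the frozen libraries -0.10, 0.26 and 0.35, in the same order of scalings. For the whole sequence it was -0.082 by total counts and 0.13 by upper quartile. The members within 1.3 under TMM held 1.350% of control, 1.38% of acclimated, 1.27% of acclimated-frozen and 1.42% of directly frozen counts. No paired analysis was possible because each treatment has 1 library and the labels give no replicate numbers.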
